A study of Mus musculus with 6 samples.

Results

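Mucin-type glycosyltransferases and sulfotransferases are the Golgi enzymes that start, extend, branch and cap the sugar chains of mucins, the glycoproteins that make up the mucus of the stomach. Members were taken by gene symbol: the Galnt, B3gnt, B3galt, B4galt, B4galnt, Fut, St3gal, St6gal and St6galnac, Gcnt and Chst families, together with C1galt1, C1galt1c1 and A4gnt. This gave 87 genes among the 21526 symbols of the count table. The symbols also bring in relatives that act mainly on other sugar chains, such as the chondroitin sulfotransferases and the ganglioside enzymes, and these are named as such.

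RNA was sequenced from epithelial cells released with EDTA from the corpus, the acid-secreting region of the mouse stomach, without culture. Of the 6 libraries, 3 came from Yap-activated gastric cancer in mice of genotype CluCreERT2;R26rtTA;HA-Yap+ and 3 from normal stomach of wild-type (WT) mice, called Yap-activated and Normal here. CreERT2, a tamoxifen-dependent Cre recombinase, sits at the Clu gene, rtTA is a doxycycline-dependent activator at Rosa26, and HA-Yap is a tagged form of Yap, the coactivator that the Hippo pathway restrains. Mice of both groups were given 2 mg tamoxifen daily for 5 days and then doxycycline food for the 14 days before the endpoint. Normal mice lacked CreERT2 and rtTA as well, so what those alleles do by themselves and what HA-Yap does cannot be told apart. The labels do not say that each library came from a separate mouse, and the p-values then rest on differences between libraries that may be partly technical.

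As background, a mucin-type sugar chain begins when a polypeptide GalNAc transferase links N-acetylgalactosamine (GalNAc) to a serine or threonine. Galactose or N-acetylglucosamine (GlcNAc) is then added to form the core structures, which other enzymes branch and lengthen. Fucose, sialic acid, GlcNAc, GalNAc or sulfate finally caps the ends, and these caps make blood group, Lewis and sialylated antigens. In the stomach, surface mucous cells make Muc5ac and carry fucosylated caps, while mucous neck and gland cells make Muc6 with the GlcNAc cap that A4gnt adds.

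Totals were 25580734 to 44295619 counts in Yap-activated and 36815754 to 48440033 in Normal libraries. Yap1, the targeted gene, was at 3085, 1468 and 1651 CPM (counts per 1000000, with TMM library scaling) in Yap-activated libraries 1, 2 and 3 and at 100 to 106 CPM in Normal libraries. Summed markers of parietal, chief and surface mucous cells fell steeply. The 6 chief cell markers summed to 153 to 188 CPM in Yap-activated and 87909 to 137669 CPM in Normal libraries. Chil4 among them and Foxq1 among the surface mucous markers did not pass the threshold used below. The 8 parietal cell markers summed to 406 to 470 CPM in Yap-activated and 23646 to 31540 CPM in Normal libraries, and the 7 surface mucous markers to 1718 to 2558 CPM and 48012 to 55051 CPM in the same order. Mucous neck markers (6 genes) summed to 1742 to 2453 CPM in Yap-activated and 1965 to 3254 CPM in Normal tissue, but moved apart one by one: Cftr, Glipr1, Aqp5 and Gkn3 rose, Muc6 fell and Tff2 did not pass, with a median log2 fold change of 2.39. Summed over 11 immune genes, the level was 791, 132 and 582 CPM in Yap-activated libraries 1, 2 and 3, against 115 to 124 CPM in Normal. Of the 10 tested, 5 rose and 5 did not pass. Much of the sum in library 1 was S100a8 and S100a9, at 219 and 274 CPM there and 55.8 and 81.6 CPM in library 3. Ptprc, Csf1r, Adgre1 and Lyz2 were highest in library 3. The 7 endothelial genes summed to 34.4 to 60.7 CPM in Yap-activated and 165 to 177 CPM in Normal libraries, and the 7 fibroblast genes to 383 to 625 CPM and 809 to 1218 CPM. No marker was at 0 in either group except Lipf among the 6 chief cell genes, which had no counts in any library, and Ly6g, with none in Normal. Bulk RNA holds every cell present, so fewer cells of a type and less RNA per cell cannot be told apart, and the part of cell mix in each result below was not tested.

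Of the 87 members, 75 passed the filter on low counts and were tested, 16 were higher in Yap-activated tissue, 27 were lower and 32 did not pass the threshold (edgeR quasi-likelihood test, adjusted p under 0.05 over all genes tested). Among all 14600 genes tested, 29.8% were called higher and 29.7% lower, 59.5% in all, so the 57.3% of members called is close to the background. The groups did not overlap at 65.3% of the tested members and at 67.6% of all genes. Counts called in the families and lists below are to be read beside these shares of all genes. No family or list was tested as a set. By over 2-fold, 12 members were higher and 23 lower, against 16.9% and 16.1% of all genes, and by over 4-fold 9 were higher and 11 lower, against 8.16% and 6.81% of all genes. The median log2 fold change was -0.31 over the members and 0.01 over all genes. When libraries were scaled by their totals and not by TMM, log2 fold changes moved up by a median of 0.49, and the split of members became 26 higher and 19 lower, 57.8% of calls being higher against 37.2% with TMM. The members' median then stood at 0.16 against 0.50 for all genes, so its distance below all genes was 0.35 on the log2 scale in place of 0.32. Of the 3 members that reached the filter through 1 group alone, B3gnt5 and Galnt14 did so through Yap-activated libraries and St6gal2 through Normal libraries. Those 3 had to differ, and nothing is read from their calls. They are within the counts above, also those by over 2-fold and over 4-fold. The shares of all genes were not cleared of such genes either.

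**Figure D1:**
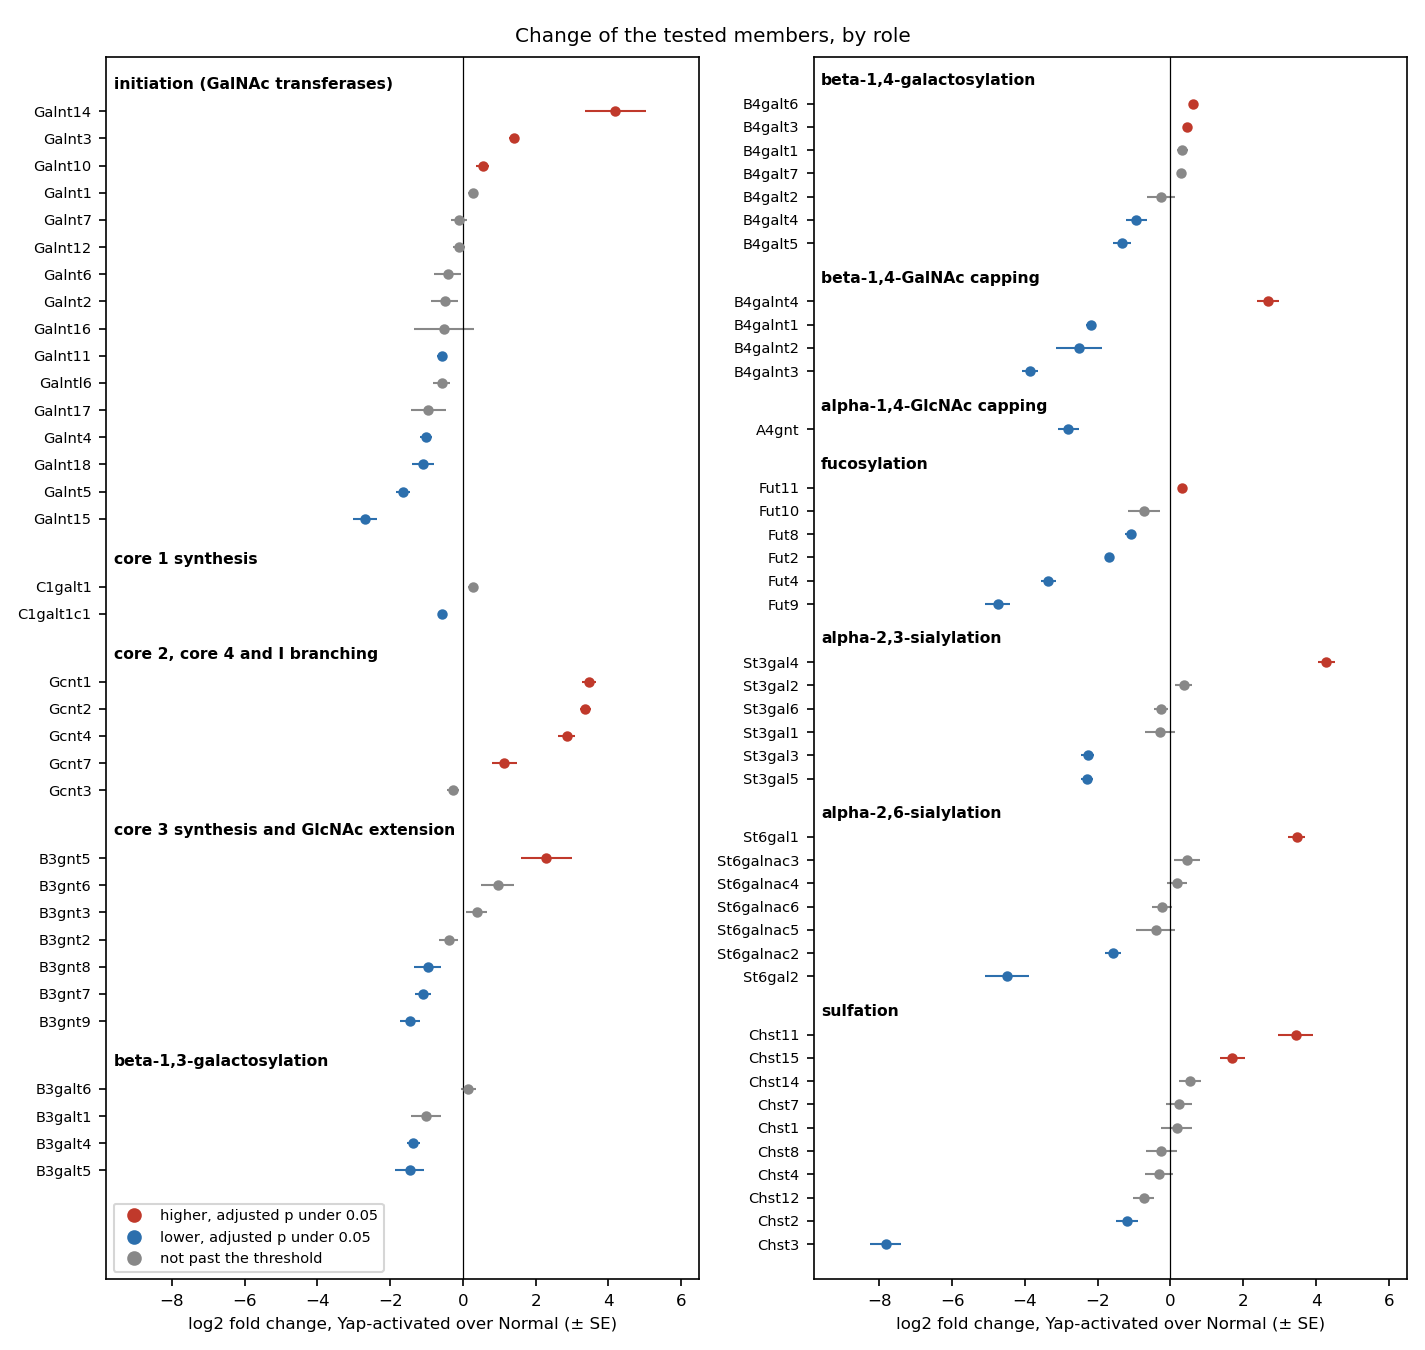
Log2 fold change of Yap-activated over Normal tissue (horizontal axis, with SE) for the 75 tested members, grouped by role, with red for members called higher, blue for lower and grey for those not past the threshold. Branching enzymes (Gcnt) lie to the right apart from Gcnt3, most fucosyltransferases lie to the left, and Chst3 at -7.82 and St3gal4 at 4.28 are the farthest to either side.

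Levels of different genes were compared per kilobase of merged exons (CPM per kb). Gcnt3, which makes branched cores in mucin-secreting epithelia, had the highest level in both groups, at 78.7 to 103 CPM per kb in Yap-activated and 103 to 134 CPM per kb in Normal libraries. In Yap-activated tissue it was followed by St3gal4, B3gnt3 and B4galt1 at means of 60.0, 59.7 and 57.4 CPM per kb, whose ranges over libraries overlap, and by Galnt3 at 51.7. In Normal tissue the next were B4galnt1, A4gnt and Galnt4, at 63.4, 61.8 and 53.3 CPM per kb, again with overlapping ranges. St3gal4 ranked 2 of the 87 members in Yap-activated and 33 in Normal tissue, A4gnt ranked 19 and 3, and B4galnt3 ranked 35 and 8. Summed over all members the level was 655 to 785 CPM per kb in Yap-activated and 795 to 985 CPM per kb in Normal libraries. With library totals alone the order was the other way and the ranges overlapped, at 756 to 953 CPM per kb in Yap-activated and 637 to 856 CPM per kb in Normal libraries, so no direction is given for this sum.

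Promoter sequence was available from RefSeq (GRCm38.p6) for 67 of the 87 members, as 250 bases before each annotated start. Windows were searched on both strands for GGAATG, which reads as CATTCC from the opposite strand. It is the core of the motif bound by the TEAD partners of Yap. The windows were also searched for TGANTCA, where N is any base, a looser form of the AP-1 motif TGA(C/G)TCA. The TEAD letters were found for 13 of 67 members, 6 of 23 not called, and in 14.4% of all genes with a window. Among called members that reached the filter in both groups, 4 of 13 higher and 1 of 18 lower had them. Of those higher by over 4-fold, 1 of 7 did. The AP-1 letters were found for 5 of 67 members and in 7.82% of all genes. With both groups at the filter they were in 2 of 13 higher and 1 of 18 lower members, and in 2 of 23 not called. The higher members, Gcnt4 and St6gal1, held TGAATCA. The stricter TGACTCA or TGAGTCA was found only in Galnt15 (lower), Galnt16 and Chst4 (not called). A match is a string of letters and no evidence of binding, and a window without one says only that these letters are not in it. Of the 7 members called higher by over 4-fold that reached the filter in both groups, 3 had a match, and these windows are shown for that reason, 5′ to 3′ on the gene's strand, with the matched letters in capitals. They lie at chr19:17339506-17339755 (minus strand) for the most downstream of 3 Gcnt1 starts, chr13:96924094-96924343 (plus strand) for the more upstream of 2 Gcnt4 starts and chr16:23290220-23290469 (plus strand) for the most downstream of 3 St6gal1 starts.
Gcnt1: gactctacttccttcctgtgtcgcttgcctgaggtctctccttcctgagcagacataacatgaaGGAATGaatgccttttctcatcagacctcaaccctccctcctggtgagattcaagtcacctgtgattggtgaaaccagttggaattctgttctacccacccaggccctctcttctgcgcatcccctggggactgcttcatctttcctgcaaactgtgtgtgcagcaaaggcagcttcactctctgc
Gcnt4: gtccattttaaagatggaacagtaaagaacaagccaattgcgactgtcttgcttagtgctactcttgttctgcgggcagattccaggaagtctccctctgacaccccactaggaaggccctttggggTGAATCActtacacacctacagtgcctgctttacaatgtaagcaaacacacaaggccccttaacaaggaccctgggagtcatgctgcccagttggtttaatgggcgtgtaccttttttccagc
St6gal1: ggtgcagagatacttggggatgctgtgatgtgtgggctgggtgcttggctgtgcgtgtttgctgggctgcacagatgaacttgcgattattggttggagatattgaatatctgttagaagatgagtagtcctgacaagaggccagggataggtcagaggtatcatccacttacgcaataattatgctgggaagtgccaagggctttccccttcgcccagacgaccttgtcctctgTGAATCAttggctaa

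The TEAD letters start 186 bases before the start site in Gcnt1, and the AP-1 letters 123 bases before it in Gcnt4 and 15 bases before it in St6gal1. The other annotated starts of Gcnt1, Gcnt4 and St6gal1 have windows that hold neither motif. Of the exon length of St3gal4, 14.1% lies opposite another annotated transcript, and of Gcnt4 10.5%. Among members without a match, St3gal4, Chst11 and Gcnt2, which rose by a log2 fold change of 3.36 or more, had neither in any window.

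The GalNAc transferases, which start the chain, were split. Of 19 genes 16 were tested, 3 were higher, 5 were lower and 8 did not pass, with a median log2 fold change of -0.51, while with library totals alone 4 were higher and 3 lower. Galnt3, which also glycosylates the hormone Fgf23, had 236, 225 and 217 CPM in Yap-activated libraries and 75.5, 96.1 and 85.3 CPM in Normal libraries. Every Yap-activated library stood above every Normal one, and the log2 fold change was 1.40 (SE 0.12, adjusted p = 4.5e-05). Galnt4, an enzyme that prefers peptides already carrying GalNAc, had 107, 153 and 143 CPM in Yap-activated libraries, against 231, 316 and 266 CPM in Normal libraries. It fell by 1.01 on the log2 scale (SE 0.17, adjusted p = 0.0016), and its exons overlap those of Poc1b on the same strand. Per kilobase, Galnt3 made up 21.3 to 31.3% of the family's level in Yap-activated and 8.81 to 9.41% in Normal libraries, while Galnt4 made up 12.1 to 14.2% and 23.2 to 26.2%.

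Other GalNAc transferases moved less or at lower levels. Galnt15 had 0.779, 0.596 and 1.17 CPM in Yap-activated libraries and 6.84, 4.56 and 5.31 CPM in Normal libraries, and fell by 2.70 on the log2 scale (SE 0.33, adjusted p = 2.76e-04). Galnt5 fell by 1.64, Galnt18 by 1.09 and Galnt11 by 0.56. Galnt10, a follow-up enzyme like Galnt4, rose by 0.54 (adjusted p = 0.0274), but did not pass when Yap-activated replicate 2 (0.0719), Yap-activated replicate 3 (0.0654), Normal replicate 1 (0.0880) or Normal replicate 3 (0.0893) was left out. Galnt18 lost its call without Normal replicate 1 (adjusted p = 0.0628). With library totals alone Galnt11 was at -0.06 and Galnt18 at -0.59, neither past the threshold. Galnt14 reached the filter through Yap-activated libraries alone, so its call is given no weight. It had 47 counts over Yap-activated and 2 over Normal libraries. Both Normal counts were in library 2.

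The most abundant GalNAc transferases other than Galnt3 and Galnt4 did not pass. Galnt6, a close paralog of Galnt3, had 48.8, 116 and 146 CPM in Yap-activated libraries and 156, 149 and 109 CPM in Normal libraries. The groups overlap, and Yap-activated library 1 is the lowest of the 6 (log2 fold change -0.41, SE 0.37, adjusted p = 0.375). Galnt7 was at -0.10, Galnt12 at -0.10 and Galnt1 at 0.27. Galnt17 and Galntl6 passed without Yap-activated replicate 3, at -1.68 (adjusted p = 0.00769) and -0.87 (adjusted p = 0.00397), while Galnt16 was at -0.52. Galnt2 was at only 0.215 to 0.271 CPM in Yap-activated and 0.262 to 0.411 CPM in Normal libraries. In the annotation 90.0% of its exon length lies within Gm20388, a readthrough gene on the same strand that the count table does not list, so this value may not hold all Galnt2 reads.

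Of the genes of core 1 synthesis, C1galt1c1 was lower and C1galt1 did not pass. C1galt1, the enzyme that makes the core 1 disaccharide, had 244, 307 and 275 CPM in Yap-activated libraries and 204, 250 and 228 CPM in Normal libraries. The groups overlap by 1 pair of libraries, and the log2 fold change was 0.28 (SE 0.13, adjusted p = 0.108). It passed without Yap-activated replicate 1 (0.37, adjusted p = 0.0486) and with library totals alone (0.77, adjusted p = 0.00289). C1galt1c1, also called Cosmc, the chaperone without which C1galt1 does not fold, had 33.3, 34.4 and 31.0 CPM in Yap-activated libraries, against 43.3, 52.3 and 51.1 CPM in Normal libraries. It was lower by 0.57 on the log2 scale (SE 0.11, adjusted p = 0.00258), a call lost with library totals alone, where it was at -0.08 (adjusted p = 0.579).

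Most branching enzymes rose. Of 5 Gcnt genes 4 were higher and none lower with TMM, against 29.8% and 29.7% of all genes. The same counts held with library totals alone. Gcnt1, which adds the core 2 branch and is best known from leukocytes, had 44.8, 35.5 and 30.6 CPM in Yap-activated libraries and 2.91, 3.73 and 3.35 CPM in Normal libraries, with a log2 fold change of 3.47 (SE 0.19, adjusted p = 5.29e-06). Gcnt2, which makes the branched I antigen, had 79.7, 61.3 and 70.8 CPM in Yap-activated and 6.44, 6.39 and 7.78 CPM in Normal libraries, with a log2 fold change of 3.36 (SE 0.15, adjusted p = 2.23e-06). Gcnt4, another core 2 enzyme, averaged 13.9 ± 2.12 CPM in Yap-activated and 1.92 ± 0.43 CPM in Normal libraries (SD, n = 3 each), a log2 fold change of 2.85 (SE 0.23). In each of these 3 genes every Yap-activated library stood above every Normal one. Gcnt7, at 0.787 CPM in Yap-activated and 0.355 CPM in Normal tissue, rose by 1.14, but did not pass when Yap-activated replicate 1 (adjusted p = 0.0564), Normal replicate 1 (0.0782) or Normal replicate 2 (0.0894) was left out, nor with DESeq2 (0.0653).

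Gcnt3, the most abundant of the family, did not pass. It had 338, 444 and 433 CPM in Yap-activated libraries and 442, 575 and 456 CPM in Normal libraries, where the groups overlap (log2 fold change -0.28, SE 0.16, adjusted p = 0.177). With library totals alone it was at 0.22. Per kilobase its share of the family's level was 78.0, 84.9 and 84.9% in Yap-activated libraries, against 98.2, 98.4 and 97.9% in Normal libraries. Even after the rises, Gcnt2 held a mean of 8.94% and Gcnt1 5.75% of the family's level in Yap-activated tissue, against 0.853% and 0.499% in Normal tissue. In Yap-activated libraries 1, 2 and 3, where Gcnt1 was at 44.8, 35.5 and 30.6 CPM, the immune sum was 791, 132 and 582 CPM, and the part of immune cells in the rise was not tested.

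**Figure D2:**
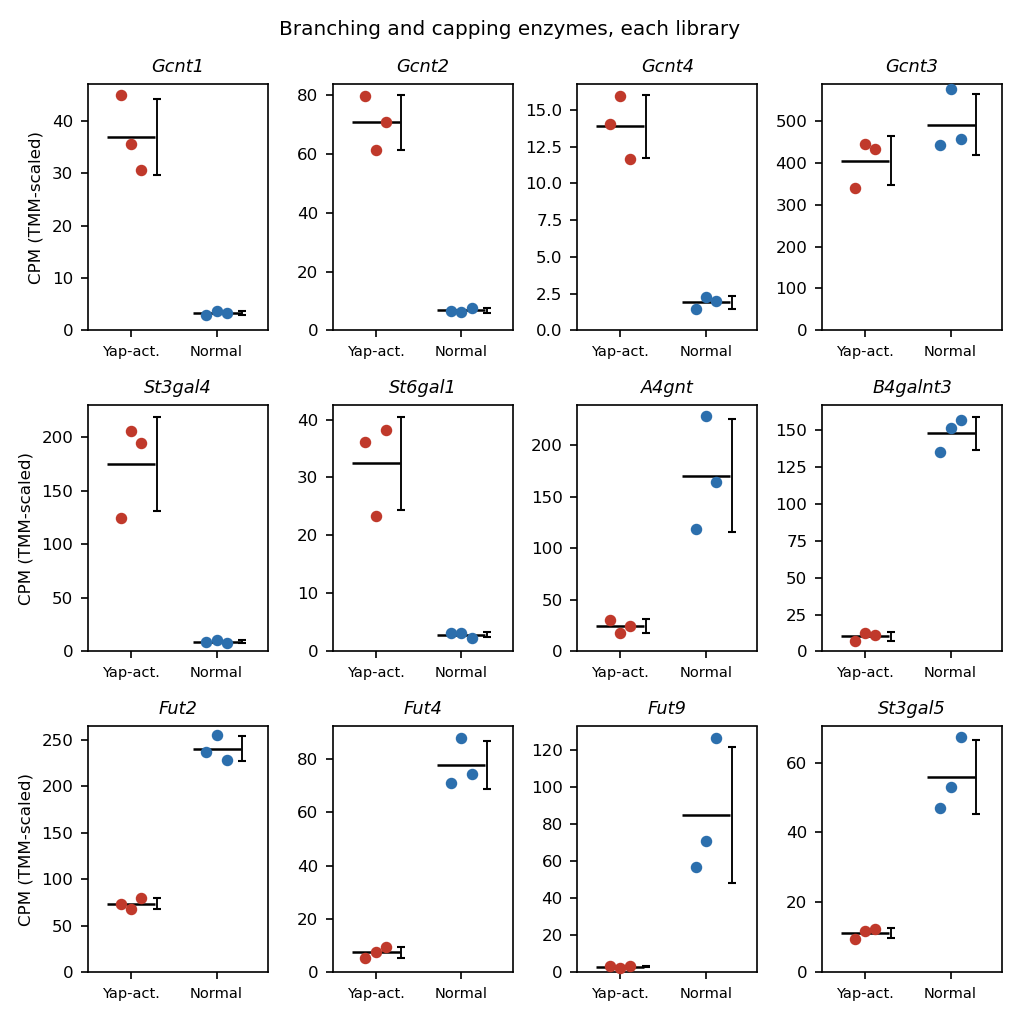
TMM-scaled CPM of 12 branching and capping enzymes in each library (vertical axes start at 0), with Yap-activated libraries in red on the left and Normal libraries in blue on the right of each panel, a line at the mean and a bar of 1 SD. The groups overlap in Gcnt3 and stand apart in the other 11 genes.

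Among the GlcNAc-adding B3gnt enzymes, 1 of 7 tested was higher, 3 were lower and 3 did not pass, and with library totals alone 3 were higher and 1 lower. B3gnt3, which extends core 1 chains, held a mean of 92.0% of the family's level per kilobase in Yap-activated and 81.5% in Normal libraries. It had 201, 139 and 207 CPM in Yap-activated libraries and 101, 203 and 116 CPM in Normal libraries, so Normal library 2 lies among the Yap-activated values (log2 fold change 0.38, SE 0.28, adjusted p = 0.279). Without that library the log2 fold change was 0.75 and passed (adjusted p = 0.0219). B3gnt6, the core 3 enzyme, was scarce, at 0.847, 0.596 and 0.484 CPM in Yap-activated and 0.204, 0.499 and 0.253 CPM in Normal libraries, and did not pass (0.96, adjusted p = 0.0992), though it did with library totals alone (1.44, adjusted p = 0.0227).

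The members lower in this family were B3gnt9, B3gnt7 and B3gnt8. B3gnt9 had 1.05, 0.907 and 0.818 CPM in Yap-activated libraries, against 2.74, 2.52 and 2.31 CPM in Normal libraries (log2 fold change -1.45, SE 0.27, adjusted p = 0.00231). B3gnt7, a keratan sulfate enzyme, fell by 1.09 (with library totals alone -0.60, adjusted p = 0.0580), and B3gnt8, a partner of B3gnt2, by 0.97 (adjusted p = 0.0484). B3gnt8 did not pass in the absence of Yap-activated replicate 1 (adjusted p = 0.113), Yap-activated replicate 2 (0.0818), Normal replicate 1 (0.108), Normal replicate 2 (0.0835) or Normal replicate 3 (0.129). With library totals alone it was at -0.47 (adjusted p = 0.285), with a filter at 1 CPM the adjusted p was 0.0504, and its exons overlap Bckdha on the opposite strand. B3gnt5, which starts lacto-series glycolipids and is the 1 gene of the family counted as higher, had 1.56, 0.334 and 0.837 CPM in Yap-activated libraries and 0.291, 0.0713 and 0.190 CPM in Normal libraries. It reached the filter through Yap-activated libraries alone, so its call is given no weight. B3gnt2, the main maker of polylactosamine chains, was at 1.43 to 1.79 CPM in Yap-activated and 1.96 to 2.36 CPM in Normal libraries, and 58.6% of its exon length lies within Gm28048 on the same strand, which the count table does not list, so its value may not hold all B3gnt2 reads.

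Galactosyltransferases moved in both directions. Of 4 tested B3galt genes 2 fell and none rose, while with library totals alone 1 fell and 1 rose. B3galt5, which makes type 1 chains in the gut, had 1.49, 3.48 and 2.42 CPM in Yap-activated libraries and 4.43, 9.81 and 6.26 CPM in Normal libraries (log2 fold change -1.47, SE 0.39, adjusted p = 0.0133). It did not pass without Normal replicate 2 (-1.12, adjusted p = 0.0566) or with library totals alone (-0.98, adjusted p = 0.0635). B3galt4, the ganglioside GM1 synthase, had 9.32, 10.6 and 7.31 CPM in Yap-activated libraries, against 23.9, 25.7 and 20.3 CPM in Normal libraries (-1.36, SE 0.17, adjusted p = 3.35e-04). B3galt6, which builds the linker of proteoglycans, was at 0.15. B3galt1 was at -1.01 and passed without Yap-activated replicate 2 (-1.27, adjusted p = 0.0470).

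Of the 7 B4galt genes, all tested, 2 rose, 2 fell and 3 did not pass, and with library totals alone 4 rose and 1 fell. B4galt1, the main lactosamine enzyme, had 195, 263 and 271 CPM in Yap-activated libraries and 184, 204 and 192 CPM in Normal libraries, with Yap-activated library 1 within the Normal range. B4galt1 was at 0.33 on the log2 scale (SE 0.15, adjusted p = 0.0855), and without that library at 0.48 (adjusted p = 0.00849). The lactosylceramide synthases B4galt6 and B4galt5 moved apart. B4galt6 had 138, 117 and 114 CPM in Yap-activated libraries and 80.8, 80.9 and 79.0 CPM in Normal libraries (0.62, SE 0.10, adjusted p = 0.00147), while B4galt5 had 13.1, 8.37 and 16.3 CPM in Yap-activated libraries and 27.6, 31.6 and 35.9 CPM in Normal libraries (-1.33, SE 0.24, adjusted p = 0.00204). B4galt3 rose by 0.46, with exons that overlap Ppox on the opposite strand. B4galt4 fell by 0.94 (adjusted p = 0.0212), but did not pass in the absence of Yap-activated replicate 1 (0.0530) or Normal replicate 1 (0.0807), nor with library totals alone (-0.43, adjusted p = 0.197). B4galt7, the first galactosyltransferase of the proteoglycan linker, was at 0.28 (adjusted p = 0.0581).

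The B4galnt enzymes, which add GalNAc as a cap, fell in 3 of 4 genes and rose in B4galnt4, also with library totals alone. Over all genes 29.7% were called lower with TMM. B4galnt3 and B4galnt4 both make the LacdiNAc terminus (GalNAc on GlcNAc). B4galnt3 had 6.74, 12.4 and 11.3 CPM in Yap-activated libraries and 135, 151 and 157 CPM in Normal libraries, and fell by 3.86 on the log2 scale (SE 0.23, adjusted p = 8.92e-06). B4galnt4 had 4.58, 2.98 and 3.87 CPM in Yap-activated libraries, against 0.582, 0.523 and 0.664 CPM in Normal libraries, a rise of 2.69 (SE 0.30, adjusted p = 1.65e-04). Per kilobase B4galnt3 stayed above B4galnt4 in both groups, at means of 2.68 and 0.989 CPM per kb in Yap-activated tissue and 39.1 and 0.153 CPM per kb in Normal tissue. B4galnt1, the ganglioside GM2 and GD2 synthase, had 45.9, 43.0 and 54.4 CPM in Yap-activated libraries and 210, 209 and 238 CPM in Normal libraries (-2.20, SE 0.13, adjusted p = 7e-06), and its exons overlap Slc26a10 on the opposite strand. B4galnt2, which makes the Sda antigen, was at -2.51 (adjusted p = 0.00952) and at -1.64 without Normal replicate 3, its highest library at 5.56 CPM. Summed per kilobase, the 4 genes were at 16.6 to 20.1 in Yap-activated and 97.9 to 114 in Normal libraries.

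A4gnt adds the terminal GlcNAc that marks gland mucin and is carried mainly by Muc6. It is encoded on chromosome 9 (99612502 to 99622367, plus strand, GRCm38). It had 30.9, 17.5 and 24.8 CPM in Yap-activated libraries and 119, 228 and 164 CPM in Normal libraries. The groups stand apart, and A4gnt fell by 2.80 on the log2 scale (SE 0.30, adjusted p = 2.23e-04). Muc6, the gene of the mucin that carries this cap, fell by 1.25 (SE 0.21, adjusted p = 0.00141), to 401 CPM in Yap-activated tissue against 954 CPM in Normal tissue. Of the other 5 mucous neck markers 4 rose and Tff2 did not pass, and the part of these cells in the fall of A4gnt was not tested.

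Most fucosyltransferases fell. Of 6 tested Fut genes 4 were lower and 1 higher with TMM, against 29.7% and 29.8% of all genes. The same counts held with library totals alone. Levels per kilobase of the family summed to 24.6 to 27.2 in Yap-activated and 77.4 to 88.5 in Normal libraries. Fut2, the secretor enzyme that makes the H antigen on mucins, had 74.0, 67.8 and 80.4 CPM in Yap-activated libraries and 237, 255 and 229 CPM in Normal libraries. It fell by 1.70 on the log2 scale (SE 0.11, adjusted p = 1.22e-05), and is encoded on chromosome 7 (45648591 to 45666394, minus strand). Fut9 and Fut4 add the fucose of the Lewis x antigen. Fut9 had 3.46, 2.62 and 3.38 CPM in Yap-activated libraries, against 56.9, 71.0 and 126 CPM in Normal libraries (-4.75, SE 0.35, adjusted p = 3.86e-05). Fut4 averaged 7.53 ± 1.95 CPM in Yap-activated and 77.7 ± 9.01 CPM in Normal tissue (SD, n = 3 each; -3.36, SE 0.20).

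The fall was not uniform within the family. Fut2 kept a like share of the family's level per kilobase, 50.2 to 55.3% in Yap-activated and 51.0 to 56.4% in Normal libraries. Fut4 held a mean of 7.19% in Yap-activated and 23.0% in Normal libraries, and Fut9 a mean of 0.893% and 7.39%. Fut8, which fucosylates the core of N-linked chains and not mucin-type ones, fell by 1.10 (adjusted p = 3.44e-04). Fut11 averaged 23.7 ± 1.02 CPM in Yap-activated and 19.0 ± 1.85 CPM in Normal tissue (SD, n = 3 each), a rise of 0.32 (SE 0.12, adjusted p = 0.0447). Fut11 did not pass in the absence of Yap-activated replicate 1 (adjusted p = 0.0763), Yap-activated replicate 2 (0.111), Normal replicate 1 (0.141) or Normal replicate 2 (0.141), nor with no filter on low counts (0.0635). Fut10 was at -0.72 and did not pass.

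Sialyltransferases that make the alpha-2,3 linkage changed their leading gene. St3gal4, which sialylates lactosamine ends and takes part in sialyl Lewis x, had 125, 206 and 195 CPM in Yap-activated libraries and 9.17, 10.4 and 7.46 CPM in Normal libraries. The log2 fold change was 4.28 (SE 0.23, adjusted p = 6.53e-06), and the gene is on chromosome 9 (35046576 to 35119268, minus strand). St3gal5, the ganglioside GM3 synthase, had 9.66, 11.9 and 12.4 CPM in Yap-activated libraries, against 46.9, 53.1 and 67.4 CPM in Normal libraries (-2.30, SE 0.17, adjusted p = 2.18e-05). St3gal3, another lactosamine sialyltransferase, fell by 2.28 (SE 0.17, adjusted p = 2.41e-05). Per kilobase St3gal4 held 63.0, 80.8 and 75.6% of the family's level in Yap-activated libraries, against 6.51, 6.56 and 4.45% in Normal libraries, while St3gal5 held 5.20 to 5.43% and 37.2 to 44.9%.

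The other 3 St3gal genes did not pass, though St3gal2 did with library totals alone (0.85, adjusted p = 0.0109). St3gal6 was at 89.2, 50.0 and 65.6 CPM in Yap-activated libraries and at 82.2 to 82.5 CPM in Normal libraries (-0.27, adjusted p = 0.253), and it passed without Yap-activated replicate 1 (-0.50, adjusted p = 0.0136). Its exons overlap Dcbld2 on the opposite strand. St3gal1, which sialylates core 1, was at 22.6, 6.85 and 13.5 CPM in Yap-activated libraries and 14.4, 15.9 and 22.2 CPM in Normal libraries, with the groups overlapping. Both genes are lowest in Yap-activated library 2 and highest in library 1, as is the immune sum (132 and 791 CPM), and the part of immune cells in these values was not tested. St3gal2 was at 0.36 with TMM.

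Among enzymes of the alpha-2,6 linkage, 1 of 7 tested rose, 2 fell and 4 did not pass, and with library totals alone 2 rose and 2 fell. St6gal1, which sialylates N-linked lactosamine, had 36.1, 23.3 and 38.1 CPM in Yap-activated libraries and 3.12, 3.25 and 2.37 CPM in Normal libraries (log2 fold change 3.47, SE 0.24, adjusted p = 1.43e-05). St6galnac2, which sialylates the GalNAc of mucin-type chains, had 7.22, 13.7 and 9.78 CPM in Yap-activated libraries, against 30.1, 29.1 and 33.0 CPM in Normal libraries (-1.58, SE 0.22, adjusted p = 5.74e-04). Their places in the family were exchanged, with St6gal1 at 59.6 to 76.7% of its level per kilobase in Yap-activated and 6.55 to 9.78% in Normal libraries, and St6galnac2 at 13.0 to 29.9% and 72.6 to 77.4%. St6gal2, 1 of the 2 counted as lower, was at 0.0339 to 0.0477 CPM in Yap-activated and 0.437 to 1.28 CPM in Normal libraries. It reached the filter through Normal libraries alone, so its call is given no weight. St6galnac1, which makes the sialyl-Tn antigen, had no counts in any Normal library or in Yap-activated libraries 1 and 2, and was at 0.186 CPM in Yap-activated library 3. St6galnac3, St6galnac4, St6galnac5 and St6galnac6, at 0.45, 0.18, -0.41 and -0.23, did not pass.

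**Figure D3:**
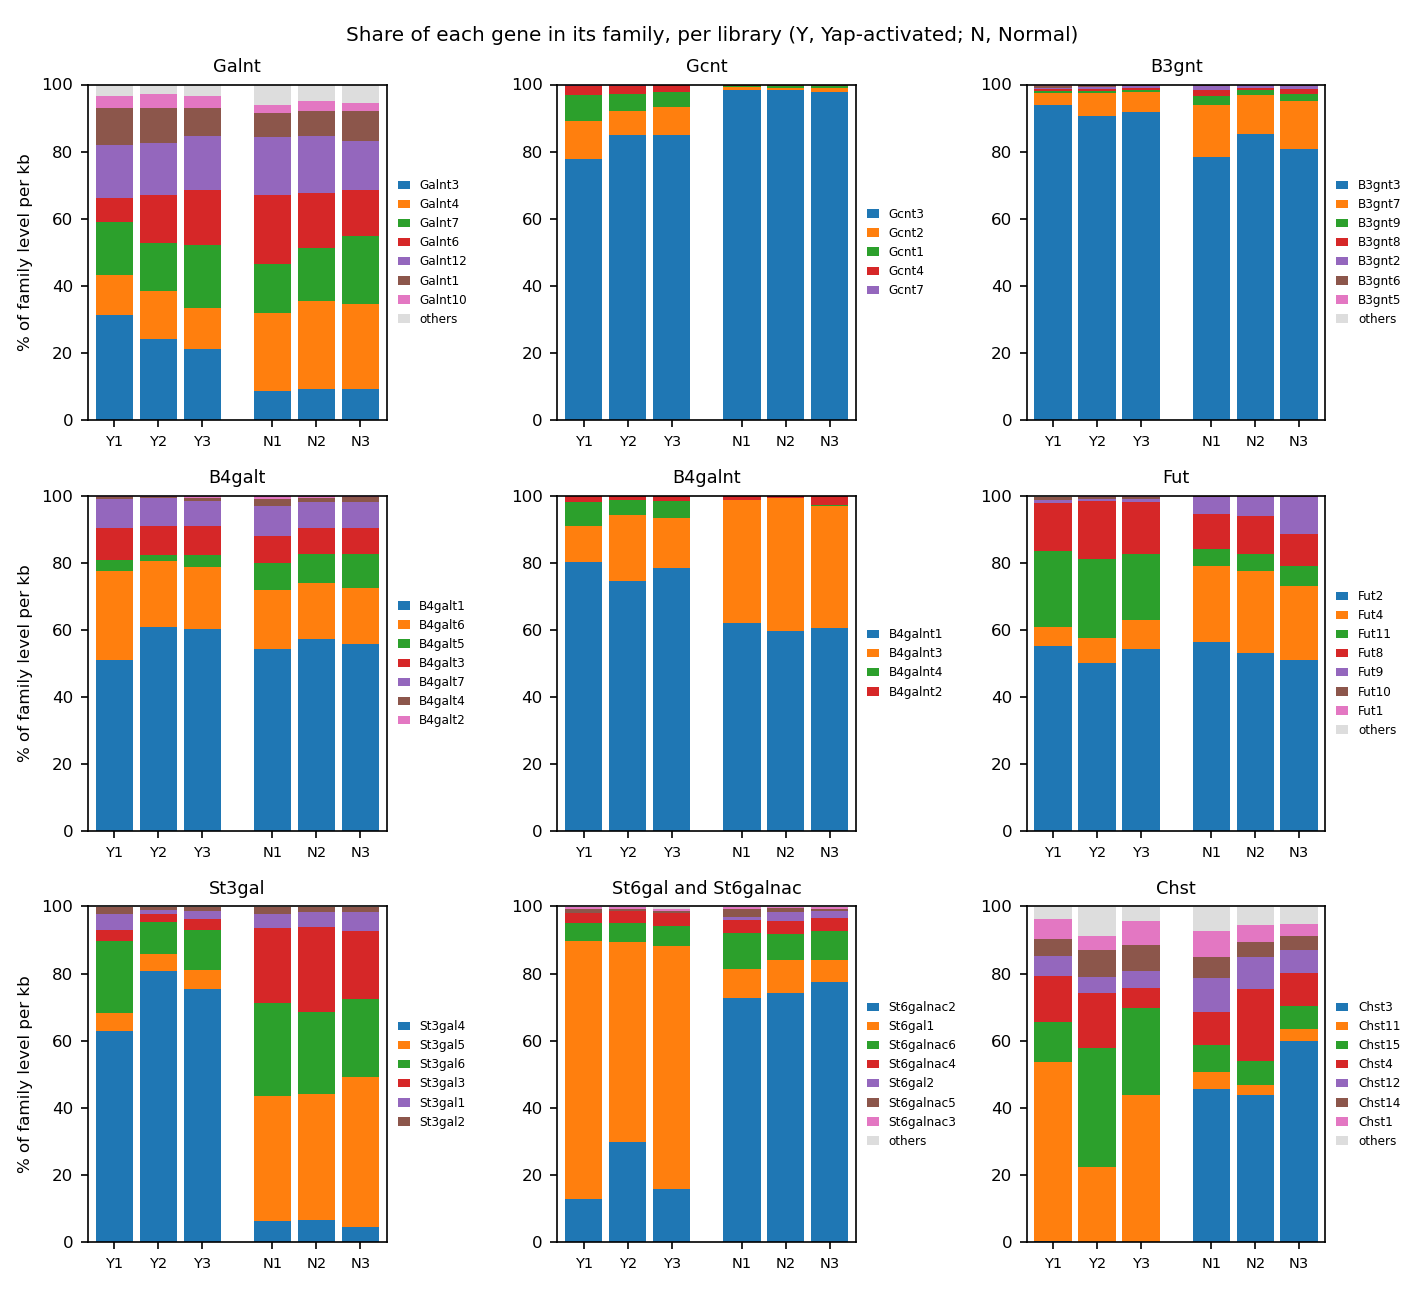
Share of each gene in the summed level per kilobase of its family (vertical axis, percent) in Yap-activated libraries Y1 to Y3 on the left and Normal libraries N1 to N3 on the right. St3gal4, St6gal1 and Chst11 with Chst15 take the leading places that St3gal5, St6galnac2 and Chst3 hold in Normal libraries. Means for St3gal6 are 14.2% in Yap-activated and 25.2% in Normal libraries, and for St3gal3 3.05% and 22.6%. Gcnt3, B3gnt3, B4galt1, B4galnt1 and Fut2 hold the largest share of their families in both groups.

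Sulfotransferases showed the widest range. Of 14 Chst genes 10 were tested, 2 rose, 2 fell and 6 did not pass, and with library totals alone 3 rose and 1 fell. Chst3, which adds sulfate at the 6-position of chondroitin GalNAc, had 0.542, 0.167 and 0.205 CPM in Yap-activated libraries and 50.2, 54.7 and 86.3 CPM in Normal libraries. It fell by 7.82 on the log2 scale (SE 0.42, adjusted p = 9.42e-06), and Chst3 held a mean of 0.248% of the family's level per kilobase in Yap-activated and 49.9% in Normal tissue. Chst3 is encoded on chromosome 10 (60181532 to 60219260, minus strand). Chst11, which sulfates chondroitin at the 4-position, had 56.3, 17.5 and 59.2 CPM in Yap-activated libraries and 4.66, 3.37 and 4.27 CPM in Normal libraries (3.44, SE 0.48, adjusted p = 8.52e-04). Chst15, which adds a second sulfate to chondroitin, had 15.5, 34.3 and 42.9 CPM in Yap-activated libraries, against 9.17, 9.22 and 10.2 CPM in Normal libraries (1.70, SE 0.34, adjusted p = 0.00449). Chst11 and the immune sum (132 CPM) were both lowest in Yap-activated library 2, and the part of immune cells in the rise of Chst11 was not tested.

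The sulfotransferases that act on GlcNAc of mucins and lymphocyte homing ligands were at lower levels. Chst4 was at 6.0, 5.34 and 3.20 CPM in Yap-activated libraries and 3.76, 9.31 and 4.90 CPM in Normal libraries, with overlapping groups (-0.31, SE 0.38, adjusted p = 0.509). Chst2 fell by 1.2 on the log2 scale (adjusted p = 0.00978), a call lost with library totals alone (adjusted p = 0.0750). Chst5 had 48 counts over Yap-activated and none over Normal libraries, and was too low for the test. Its pooled Yap-activated level was 13.8-fold that of a floor of 3 counts over the Normal group. This ratio allows for no error in the 48 counts, and Chst5 was at 0.203, 0.596 and 0.316 CPM in Yap-activated libraries. Outside this group, Chst1 was at 0.17 and Chst8 at -0.25. Of the members best known from glycosaminoglycans, Chst7 was at 0.24, Chst14 at 0.54 and Chst12 at -0.73 (adjusted p = 0.0570). Chst12 passed without Yap-activated replicate 3 (-0.91, adjusted p = 0.0357), with DESeq2 and with voom.

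Genes that supply the sulfate donor PAPS were called in 6 of 7 cases, 3 higher and 3 lower, where 59.5% of all genes were called. With library totals alone 3 were higher and 2 lower. Papss2, a PAPS synthase, had 79.8, 71.1 and 87.4 CPM in Yap-activated libraries and 325, 353 and 283 CPM in Normal libraries, and fell by 2.01 (SE 0.13, adjusted p = 1.38e-05). Bpnt1, a phosphatase that clears the used donor, had 63.3, 62.2 and 51.6 CPM in Yap-activated libraries and 180, 192 and 187 CPM in Normal libraries, and fell by 1.66 (SE 0.11, adjusted p = 1.43e-05). Slc35b3, a Golgi PAPS transporter, rose by 0.81 and Slc26a2, a sulfate transporter, by 0.86. Papss1 was at -0.20 and did not pass.

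**Figure D4:**
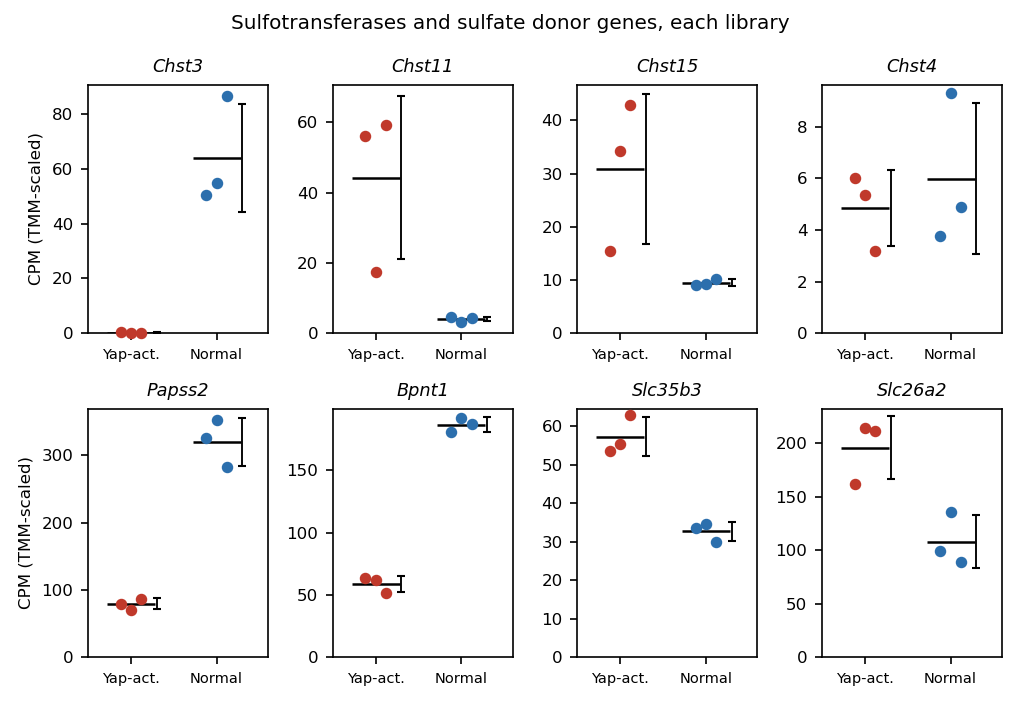
TMM-scaled CPM of 4 sulfotransferases (top) and 4 genes of sulfate donor supply (bottom) in each library, with Yap-activated libraries in red on the left and Normal libraries in blue on the right, a line at the mean and a bar of 1 SD. Chst3 is below 1 CPM in the 3 Yap-activated libraries, Chst11 varies between 17.5 and 59.2 CPM there, and Papss2 and Bpnt1 are lower in every Yap-activated library.

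Split by the chain they are best known from, the 9 members of glycosaminoglycan synthesis had 2 higher, 1 lower and 5 not past the threshold among 8 tested, and the 8 glycolipid members had 2 higher, 4 lower and 2 not past it. The other 70 members had 12 higher and 22 lower of 59 tested, 57.6% called in all, against 59.5% of all genes. Of the tested glycosaminoglycan members 37.5% were called, and of the glycolipid members 75.0%. The glycolipid calls include B3gnt5, and those of the other 70 members include Galnt14 and St6gal2. These reached the filter through 1 group alone, and their calls are given no weight. Of 22 genes for making and moving sugar nucleotides 2 rose and 10 fell, but with library totals alone 7 rose and 3 fell. Galk1, the galactokinase, fell by 1.77 (SE 0.14, adjusted p = 2.93e-05) and was at a mean of 15.5 CPM in Yap-activated and 53.1 CPM in Normal tissue. Gne, which starts sialic acid synthesis, fell by 0.77, while Cmas, which activates sialic acid, rose by 0.43. Gfpt1, which opens the hexosamine pathway and had the highest level of the list, was at -0.26 and did not pass.

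Of 12 tested genes of other capping and trimming enzymes 4 rose, 3 fell and 5 did not pass, and with library totals alone 7 rose and 2 fell. St8sia6, an alpha-2,8-sialyltransferase, had 96.1, 73.4 and 106 CPM in Yap-activated libraries and 8.82, 9.67 and 7.90 CPM in Normal libraries, a rise of 3.38 (SE 0.17, adjusted p = 3.54e-06). Ggta1, which makes the alpha-Gal epitope, rose by 2.35 (SE 0.20), and Casd1, which acetylates sialic acid, by 0.95. Fuca1, a lysosomal fucosidase and the most abundant of the list, was at -0.11 and did not pass. Of the 10 mucin genes tested, 4 rose and 4 fell, so that 80.0% were called, against 59.5% of all genes. Muc4, a membrane mucin, was at 5.62 and Muc5ac, the surface cell mucin, at -6.73 on the log2 scale.

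The 12 members too low for the test had at most 0.596 CPM in any library. Galntl5 and B3gnt4 had no counts in any library, and 93.2% of the exon length of B3gnt4 lies opposite Diablo. Fut1, an H antigen enzyme like Fut2, had 22 counts over Yap-activated and 9 over Normal libraries, and Fut7, the leukocyte enzyme of sialyl Lewis x, 14 and 8. Galnt13 had 5 and 27 counts, Galnt9 9 and 8, B3galt2 30 and 19, Chst10 13 and 35, Chst13 12 and 6, and Chst9 2 and 6, in the same order. Only Chst5 and Chst10 had groups that do not overlap.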

How the data were processed

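A single table of raw counts for 21526 gene symbols in 6 libraries was deposited by the authors, without normalization. Per the labels' protocols, a TruSeq Stranded mRNA kit was used, with paired reads of 50 bp. The submitters' processing notes list GRCm38 and mm10 as builds, with STAR 2.4.2a and DESeq2 as tools. Not given in the sources used here: which program counted reads, with which annotation and strand setting. Counts of genes with overlapping exons may therefore hold a neighbour's reads or lack their own. Positions and merged exon lengths came from GENCODE mouse release 21 (GRCm38), which holds all 87 members.

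The fit used edgeR 4.0.16 in R 4.3.3, with filterByExpr (minimum count 10), TMM, and a robust quasi-likelihood F-test over all 6 libraries, with Benjamini-Hochberg adjustment over 14600 genes and a threshold of 0.05. Each SE was taken as the log2 fold change over the root of its F statistic. CPM values are TMM-scaled, and levels per kb divide them by merged exon length. A check on simulated counts, in which few genes changed, does not bear on the choice of library scaling here, where many genes changed. Alternatives used DESeq2 1.42.0 and limma 3.58.1 (voom), other scalings and filters, non-robust dispersions, a replicate block and leaving out each library. The SEs reflect the spread between libraries as well as counts, and the floor covers counting error in the Normal counts only.

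Values in every library are given for, in each role, the largest called rise and fall with a mean of at least 1 CPM in the higher group and the member with the highest CPM, and for A4gnt, C1galt1, C1galt1c1, Fut2, B3gnt6, Gcnt3 and Galnt6 (Fut11 as its mean and SD). Of the other lists, genes were named from those with the smallest p or highest CPM, and further genes were picked after their values were seen. The members and lists were chosen with earlier results of these data known.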

Additional observations from a re-analysis of the deposited data

How the results depend on the processing

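Among members, 31 of the 43 calls kept their direction and passed under each of the 14 alternatives that tested them, and 15 of the 32 members not called passed under at least 1. Leaving out 1 library gave 14 to 16 members higher and 24 to 30 lower, and 3530 to 4304 of all genes higher and 3674 to 4273 lower. With library totals alone 26 members were higher, and over all genes 7522 were higher and 2299 lower. No called member changed direction under these alternatives. Log2 fold changes of members not called changed sign with library totals alone for B3gnt2 (0.11), B4galt2 (0.25), Chst4 (0.16), Chst8 (0.23), Galnt12 (0.39), Galnt6 (0.094), Galnt7 (0.40), Gcnt3 (0.22), St3gal1 (0.19), St3gal6 (0.22), St6galnac5 (0.092) and St6galnac6 (0.27). Leaving out 1 library gave values on either side of 0 for Chst1 (-0.29 to 0.48; Normal replicate 3 left out, -0.014), Chst4 (-0.57 to 0.15), Chst7 (-0.053 to 0.46), Chst8 (-0.50 to 0.16), Galnt12 (-0.21 to 0.024), Galnt16 (-0.91 to 0.041), Galnt7 (-0.33 to 0.055), St3gal1 (-0.77 to 0.034), St6galnac4 (-0.0076 to 0.30) and St6galnac5 (-0.81 to 0.18). The cause was not tested. The labels name no pairing of same-numbered libraries. Correlations of their deviations from the group mean were 0.040, 0.0027 and 0.069, against -0.11 to 0.066 for unlike numbers. So few libraries cannot exclude a shared batch. With the replicate block Fut11 did not pass (adjusted p = 0.0665), C1galt1 (0.0457) and B3galt1 (0.0475) did, 16 members were higher and 28 lower, and over all genes 4239 were higher and 4322 lower. Members under 1 CPM are limited by depth.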
